A study of Homo sapiens with 18 samples.

Results

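Mitochondrial ribosomal proteins are made from nuclear genes, translated in the cytosol and imported into mitochondria, where they build the ribosome that translates the messenger RNAs of mitochondrial DNA. The genes described here are the gene rows whose symbol is MRPL (large subunit) or MRPS (small subunit) with a number and at most one letter, without pseudogenes. This gave 78 genes, 49 MRPL and 29 MRPS, of 20374 gene rows found in at least 1 of 3 deposited tables. Each table, 1 per cell line, held all 78, and all 78 passed the filter on low values in every line, which was at least 1 CPM (reads scaled to a common library size) in at least 3 of 6 libraries.

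RNA was sequenced from human lung cancer lines that had received CCS1477, or DMSO as the vehicle, for 24 h. CCS1477, also called inobrodib, is a small molecule that binds the bromodomain shared by the acetyltransferases p300 and CBP, which are coactivators of transcription. H460 is labelled a large cell lung carcinoma line and H2023 a squamous one, and the series describes both as NRF2-activated. ABC-1, labelled an adenocarcinoma line, is described there as wildtype. There were 3 libraries per treatment in each line, 18 libraries together, and the cells carried no transgene or deletion that the labels name. The dose is read here as 5 µM, the unit in the sample labels, although the series text writes mM.

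The mitochondrial ribosome consists of a small subunit, which binds messenger RNA and decodes it, and a large subunit, which joins amino acids and passes the new chain through an exit tunnel toward the inner membrane. Both hold proteins inherited from bacteria as well as proteins found only in mitochondria, and together with them stand RNAs transcribed from mitochondrial DNA. All of the messenger RNAs it translates encode subunits of the respiratory chain and ATP synthase. Symbols do not always match the place in the structure. MRPS30 (mL65) and MRPS18A (mL66) sit in the large subunit. MRPS36 (KGD4) is a subunit of the 2-oxoglutarate dehydrogenase complex rather than a ribosomal protein. By structure the genes therefore encode 51 large and 26 small subunit proteins and 1 protein outside the ribosome.

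Reads recovered per library numbered 26652277 to 33568191 in H460, 15352631 to 18261158 in H2023 and 14483979 to 17483292 in ABC-1. Nothing in the labels says that replicates were grown separately, and p-values therefore reflect the spread among libraries, which may be technical. CCS1477 replicate 1 of H460 stood apart, with 0.795% of its reads from mitochondrial DNA against 1.77 to 2.06% in the other H460 libraries, and results in H460 are also given without it where it moves them. Epithelial markers (EPCAM, KRT7, KRT8, KRT18, KRT19 and CDH1) were at a summed level of 2474 to 2521 CPM in DMSO and 2793 to 3630 CPM in CCS1477 libraries of H460, whose table lists no CDH1 and where EPCAM was at 0.659 ± 0.269 CPM in DMSO (SD, n = 3). In H2023 their sum was 6989 to 7184 and then 5074 to 5132 CPM, and in ABC-1 5900 to 6360 and then 8180 to 8228 CPM. Of 8 markers of leukocytes, fibroblasts and endothelium, 3 had a row in H460 and ABC-1 and 4 in H2023, and their summed level was 24.3 to 25.5 CPM in DMSO and 18.9 to 19.8 CPM in CCS1477 libraries of H460, 32.1 to 37.2 and then 22.1 to 24.7 CPM in H2023, and 10.4 to 13.1 and then 24.2 to 25.6 CPM in ABC-1. Of these markers, CD3E and COL1A2 had a row in none of the tables. The part of these shifts in the results below was not tested. In cultures read in bulk, a change in the makeup of the culture and a change of RNA per cell cannot be told apart.

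In untreated cells the genes differed widely in level. In CPM per kilobase of transcript (kb), averaged over the DMSO libraries of the lines, the median gene stood at 37.6. MRPL51 at 154, MRPL42 at 147 and MRPL19 at 125 CPM per kb were highest. MRPS25 at 6.72, MRPS14 at 6.27 and MRPS11 at 5.66 CPM per kb were lowest. MRPL42 (mL42), a large subunit protein found only in mitochondria, fell in all lines, from 134, 128 and 130 CPM to 103, 105 and 107 CPM in H460, from 171, 169.7 and 165 CPM to 152, 147 and 153 CPM in H2023, and from 107, 105 and 107 CPM to 102, 98.0 and 97.2 CPM in ABC-1. MRPL19 (bL19m) rose in ABC-1 by 0.17 ± 0.04 on the log2 scale, from 121, 117 and 118 CPM to 138, 145 and 135 CPM, and its groups overlapped in the other lines. MRPL51 (mL51) fell in H2023 and ABC-1, by 0.17 ± 0.04 and 0.26 ± 0.06, and its change in H460 was −0.16 ± 0.07 (limma adjusted p = 0.0904), or −0.23 without CCS1477 replicate 1 (adjusted p = 0.00194). The order depended on the line: MRPL42 led in H460 at 142 CPM per kb, and MRPL51 led in H2023 at 198 and in ABC-1 at 137 CPM per kb. Levels of different lines come from separately scaled tables and were not tested against each other.

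After CCS1477 more of these genes fell than rose in each line, and most shifts were small. A gene is called higher or lower here when its log2 change (CCS1477 over DMSO) passes an adjusted p of 0.05 in limma's test over all genes of the line. In H460, 8 of the 78 genes rose and 36 fell, where 28.2% of all genes tested rose and 27.9% fell. In H2023, 9 rose and 38 fell, against 28.6% and 31.9% of all genes. In ABC-1, 13 rose and 38 fell, against 33.5% and 32.6% of all genes. The genes that fell were thus 46.2% of the members in H460 and 48.7% in H2023 and in ABC-1, and those that rose were 10.3%, 11.5% and 16.7%. The median log2 change of the 78 genes was −0.15, −0.13 and −0.14 for H460, H2023 and ABC-1, beside 0.00, −0.01 and 0.01 over all genes tested.

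**Figure D1:**
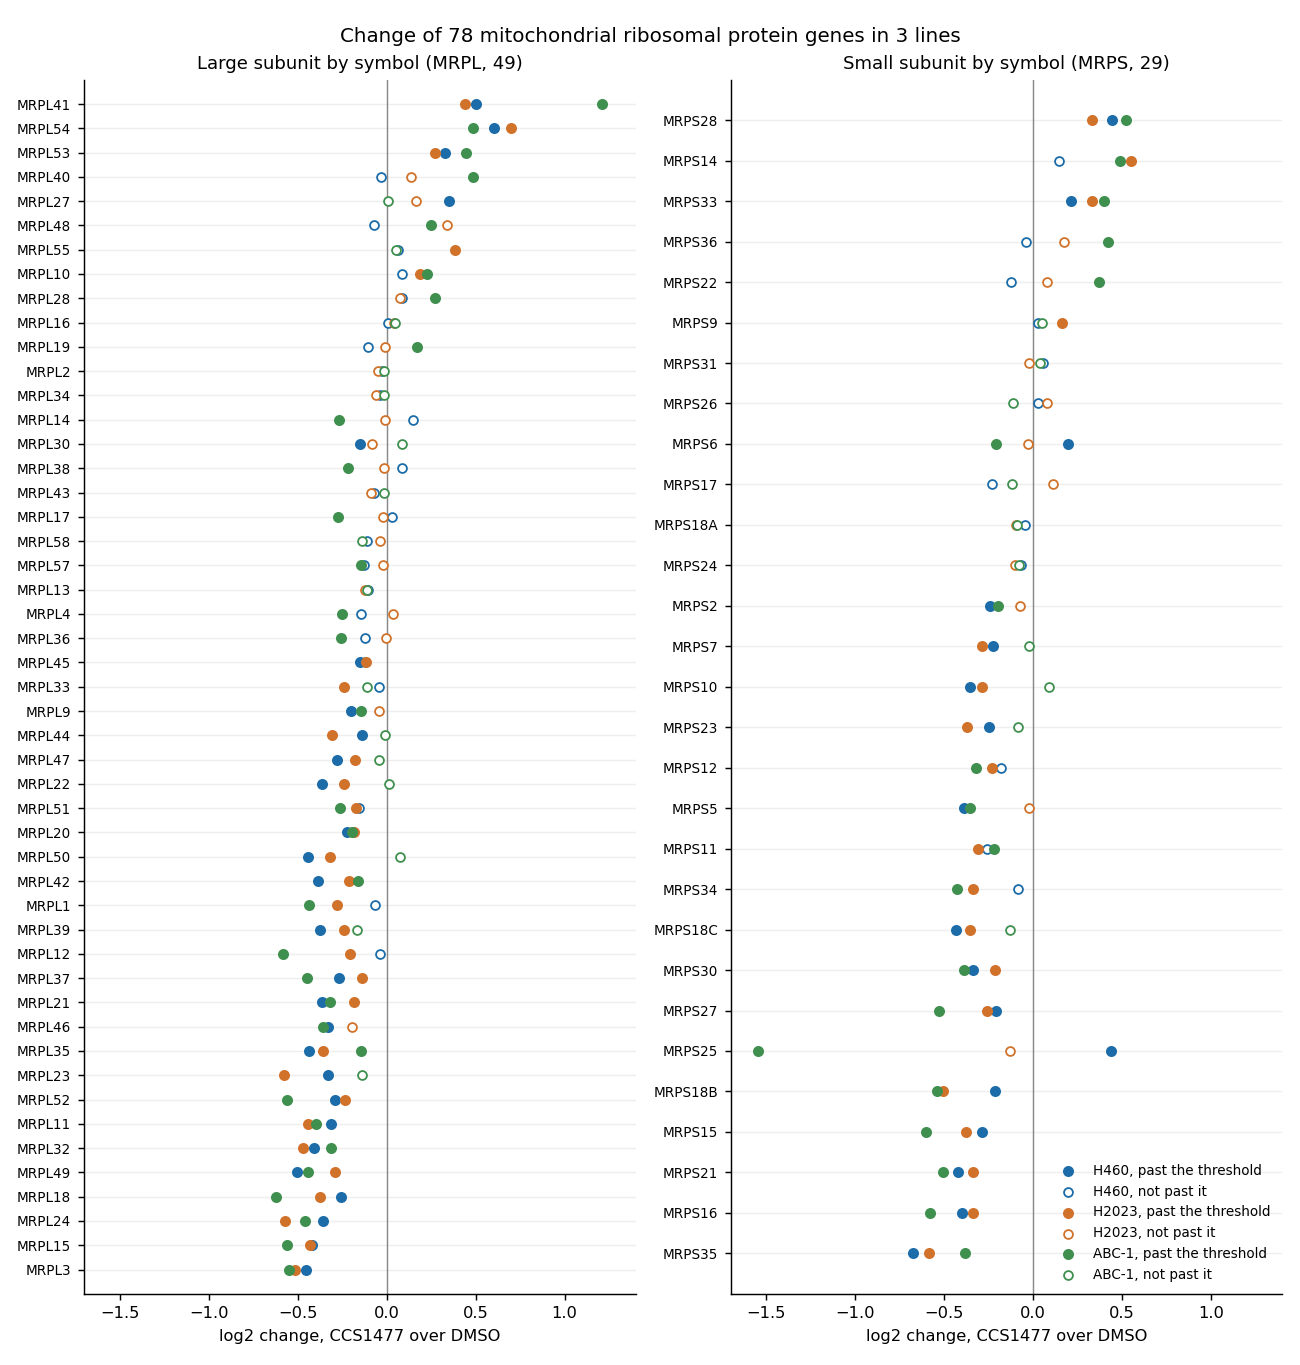
Log2 change after CCS1477 (x axis) of each of the 78 genes (y axis, ordered by the mean of the 3 lines), with large subunit symbols at left and small subunit symbols at right. Filled points pass the threshold in that line and open points do not. MRPL41, MRPL54, MRPL53, MRPS28 and MRPS33 stand at the right with filled points in all 3 lines, while MRPL3 and MRPS35 close the lower end.

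The split moved with the scaling of libraries, for the members as for all genes. With reads divided by library totals in place of the deposited scaling, 12 members rose and 31 fell in H460, 15 rose and 32 fell in H2023, and 15 rose and 33 fell in ABC-1. Over all genes tested, that scaling gave 4636 higher and 3063 lower in H460 in place of 3811 and 3773, 4784 and 4128 in H2023 in place of 4170 and 4654, and 5183 and 4005 in ABC-1 in place of 4535 and 4414. In H2023 the share of risers among called members went from 19.1% to 31.9% and that among all called genes from 47.3% to 53.7%. Without CCS1477 replicate 1 of H460, 7 genes rose and 45 fell in that line. MRPL4, MRPL12, MRPL51, MRPL57, MRPS11, MRPS12, MRPS17, MRPS24 and MRPS34 were then also called lower, and MRPS33 was no longer called higher (limma adjusted p = 0.0576). The number that rose in H460 was 3 without DMSO replicate 2 and 5 without CCS1477 replicate 3.

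A common core fell in every line. Of the 78 genes, 20 (25.6%) fell in all 3 lines, where 12.7% of the genes tested in all lines did. They comprised 13 MRPL genes (MRPL3, MRPL11, MRPL15, MRPL18, MRPL20, MRPL21, MRPL24, MRPL32, MRPL35, MRPL37, MRPL42, MRPL49 and MRPL52) and 7 MRPS genes (MRPS15, MRPS16, MRPS18B, MRPS21, MRPS27, MRPS30 and MRPS35). Of these, 15 kept all 3 calls under each alternative that was run. MRPL11 lost its call in H460 once transcript rows were added, MRPL37 in H2023 with library totals, MRPL21 and MRPL52 in H2023 and MRPL35 in ABC-1 under several alternatives each.

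MRPL3 is the mitochondrial counterpart of ribosomal protein uL3, which lies beside the site of peptide bond formation, and its gene lies on chromosome 3 at 131462212 to 131502983 of GRCh38. It stood at 159, 154 and 158 CPM in the DMSO libraries of H460 and at 124, 114 and 123 CPM after CCS1477. In H2023 the values were 193, 188 and 185 CPM and then 129, 143 and 139 CPM, and in ABC-1 190, 194 and 182 CPM and then 140, 130 and 133 CPM. The groups did not overlap in any line. The log2 change was −0.45 ± 0.04 (SE), −0.51 ± 0.05 and −0.55 ± 0.05 for H460, H2023 and ABC-1, with limma adjusted p of 7.68e-05, 2.95e-06 and 9.69e-07. In number of reads MRPL3 lost the most of all 78 genes in each line, 36.5, 51.7 and 54.4 CPM.

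MRPS35 (mS35), a small subunit protein found only in mitochondria, had the largest fall of the 78 genes in H460 and H2023. Its gene spans positions 27710773 to 27756295 of chromosome 12. In H460 it went from 105, 96.2 and 105 CPM to 65.8, 68.8 and 66.8 CPM, and in H2023 from 145, 144 and 141 CPM to 99.3, 97.6 and 99.8 CPM. In ABC-1, where it was less abundant, it went from 48.1, 46.6 and 45.5 CPM to 36.2, 37.3 and 38.3 CPM. The DMSO and CCS1477 libraries were fully apart in all lines. The log2 changes were −0.68 ± 0.05, −0.59 ± 0.04 and −0.38 ± 0.05 (limma adjusted p = 1.38e-05, 1.89e-07 and 4.14e-05). The fall was smaller in ABC-1 than in H460, by 0.29 ± 0.06 on the log2 scale (adjusted p = 0.000344), and smaller than in H2023, with a difference of −0.20 ± 0.06 for H2023 minus ABC-1 (adjusted p = 0.00805).

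MRPS16 (bS16m), an assembly protein of the small subunit in which mutations cause a respiratory chain defect, was among the more abundant members. It fell from 137, 140 and 144 CPM to 119, 109 and 108 CPM in H460 and from 115, 119 and 114 CPM to 91.2, 97.6 and 97.1 CPM in H2023. In ABC-1 it fell from 124, 126 and 113 CPM to 84.3, 85.8 and 82.2 CPM. Every CCS1477 library lay below every DMSO library of its line, and the log2 changes were −0.40 ± 0.05, −0.34 ± 0.04 and −0.58 ± 0.05. MRPS15 (uS15m) fell most in ABC-1, from 60.8, 57.5 and 58.7 CPM to 40.7, 40.2 and 40.5 CPM. Its log2 changes were −0.29 ± 0.06, −0.38 ± 0.05 and −0.60 ± 0.04 in H460, H2023 and ABC-1, all past the threshold.

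The exit tunnel group (MRPL17, MRPL22, MRPL23, MRPL24, MRPL45 and MRPL47) lines or surrounds the path of the new chain. In it 5 of 6 genes were lower in H460, 5 of 6 in H2023 and 2 of 6 in ABC-1, with none higher. These were 83.3%, 83.3% and 33.3% of the group, beside 27.9%, 31.9% and 32.6% of all genes tested. In ABC-1 the share was thus near that of all genes. MRPL24 (uL24m) was the member of this group that fell in all 3 lines. Its levels were 83.4, 84.3 and 90.3 CPM in DMSO and 75.9, 67.2 and 68.9 CPM in CCS1477 libraries of H460. They were 90.3, 86.5 and 84.6 CPM and then 58.3, 60.1 and 63.6 CPM in H2023, and 42.6, 40.0 and 38.8 CPM and then 30.4, 30.7 and 30.5 CPM in ABC-1. All 3 lines showed complete separation, with log2 changes of −0.36 ± 0.06, −0.57 ± 0.05 and −0.46 ± 0.05. MRPL23 (uL23m) fell in H2023 from 30.3, 29.8 and 30.2 CPM to 19.9, 19.8 and 23.0 CPM, by 0.58 ± 0.07 on the log2 scale. It fell by 0.33 ± 0.05 in H460, and its change in ABC-1 was −0.14 ± 0.07 (limma adjusted p = 0.119). MRPL45, which tethers the large subunit to the inner membrane, changed by −0.15 ± 0.04, −0.11 ± 0.04 and −0.12 ± 0.06. Its calls in H460 and H2023 were lost under 2 and 8 alternatives.

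Other members of the common core were MRPL18 and MRPL49. MRPL18 (uL18m) belongs to the central protuberance, the crest of the large subunit, where human mitochondria hold a transfer RNA in place of 5S ribosomal RNA. It was at 62.4, 64.1 and 65.4 CPM before and 54.4, 56.1 and 58.2 CPM after treatment in H460. In H2023 it went from 70.5, 68.3 and 66.2 CPM to 55.4, 53.1 and 55.5 CPM. The fall was steepest in ABC-1, from 39.1, 37.0 and 37.1 CPM to 25.3, 27.0 and 24.0 CPM, a log2 change of −0.62 ± 0.06 (limma adjusted p = 3.26e-06) beside −0.26 ± 0.05 in H460. MRPL49 (mL49) went from 64.6, 64.7 and 65.3 CPM to 48.8, 48.8 and 46.7 CPM in H460, where the libraries of each treatment lay close together. It fell by 0.50 ± 0.04 in H460, 0.29 ± 0.07 in H2023 and 0.44 ± 0.06 on the log2 scale in ABC-1. MRPL15 (uL15m) went from 47.8, 49.8 and 48.6 CPM to 36.1, 39.2 and 37.2 CPM in H2023, and it fell by 0.42 ± 0.06, 0.43 ± 0.05 and 0.56 ± 0.11 in H460, H2023 and ABC-1.

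Against this direction, 5 genes (6.41% of the members) rose in all 3 lines, where 14.7% of the genes tested in all lines did. These were MRPL41, MRPL53 and MRPL54 of the large subunit and MRPS28 and MRPS33 of the small subunit. MRPL41, MRPL54 and MRPS28 kept their calls under every alternative that was run. MRPL53 lost its call in H460 under 5 alternatives (highest adjusted p = 0.112) and MRPS33 lost its own there under 4 (highest adjusted p = 0.104).

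MRPL41 (mL41), a protein of the large subunit found only in mitochondria and also known as a binding partner of the apoptosis regulator BCL2, lies at 137551199 to 137552555 of chromosome 9. It stood at 59.5, 55.2 and 57.3 CPM in DMSO and at 105, 77.1 and 76.9 CPM in CCS1477 libraries of H460, and at 57.4, 59.1 and 58.0 CPM and then 81.4, 82.6 and 81.9 CPM in H2023. In ABC-1 it started lower, at 27.1, 26.4 and 24.0 CPM, and reached 66.4, 59.2 and 62.0 CPM. In all lines each CCS1477 library was above each DMSO library, and in H460 replicate 1 was the highest. The log2 change was 0.50 ± 0.11, 0.44 ± 0.04 and 1.21 ± 0.07 in the order H460, H2023, ABC-1 (limma adjusted p = 0.00579, 4.30e-06 and 3.85e-08), the last being the largest rise of any member in any line. Without CCS1477 replicate 1 of H460 the change there was 0.35, still past the threshold. MRPL53 (mL53) was likewise highest in that library, at 57.4 CPM beside 41.2 and 40.8 CPM in the other CCS1477 libraries and 34.8, 35.0 and 34.4 CPM in DMSO. Its change in H460 was 0.33 ± 0.12, and 0.17 without that library, past the threshold both times.

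MRPL54 (mL54), placed near the base of the L7/L12 stalk, is a low-abundance member at 3762664 to 3768575 of chromosome 19. In H460 it moved from 13.1, 11.2 and 12.8 CPM to 22.7, 19.0 and 18.1 CPM. In H2023 it moved from 16.5, 15.5 and 16.8 CPM to 24.3, 29.5 and 29.2 CPM, and in ABC-1 from 16.1, 15.1 and 13.4 CPM to 21.5, 20.9 and 22.8 CPM. The libraries of the treatments did not overlap, and the log2 changes were 0.61 ± 0.10, 0.70 ± 0.09 and 0.48 ± 0.09. MRPS28 (bS1m) went from 14.1, 11.9 and 13.5 CPM to 19.5, 18.8 and 18.3 CPM in H460, from 24.5, 22.5 and 25.5 CPM to 33.5, 30.2 and 31.0 CPM in H2023, and from 9.49, 9.90 and 8.08 CPM to 13.4, 13.9 and 13.9 CPM in ABC-1. It too was fully separated in every line, with log2 changes of 0.44 ± 0.08, 0.33 ± 0.07 and 0.52 ± 0.10. MRPS33 (mS33) changed by 0.21 ± 0.07, 0.33 ± 0.05 and 0.40 ± 0.08.

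**Figure D2:**
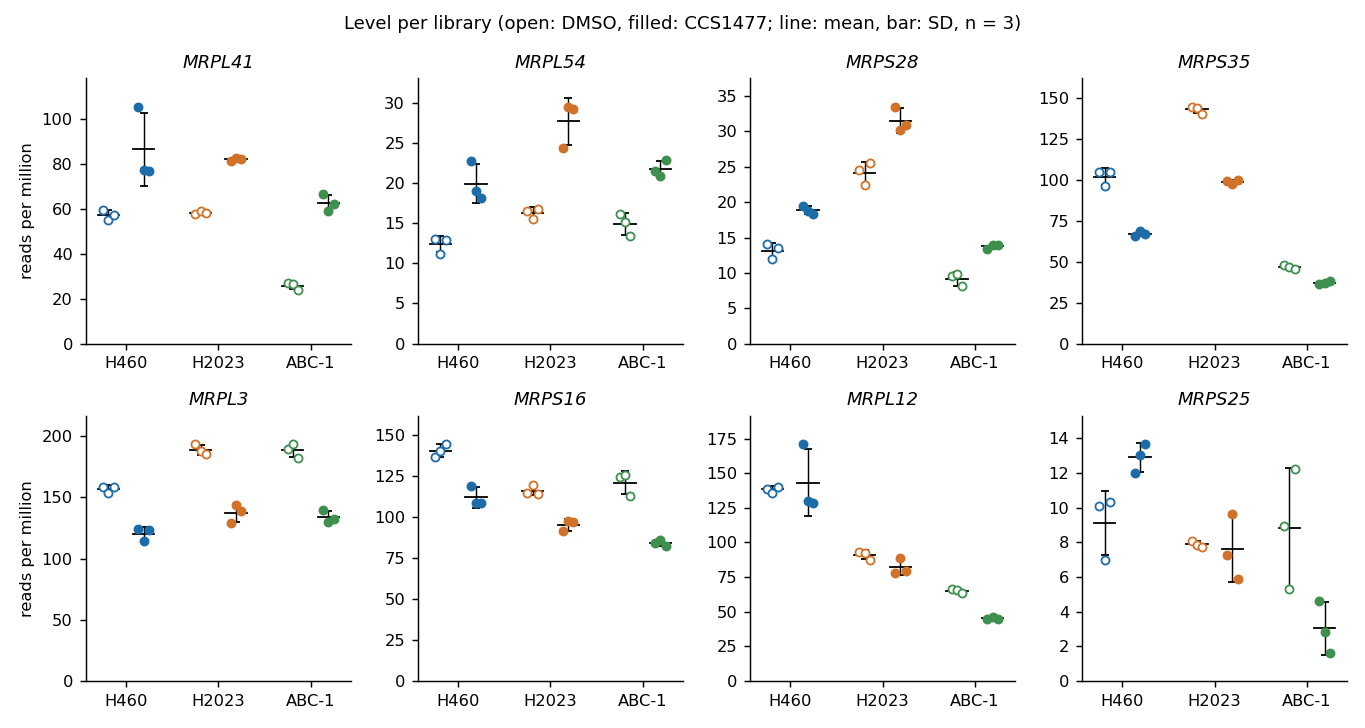
Level in CPM (y axis) of 8 genes in each library of the 3 lines, open points for DMSO and filled points for CCS1477, with the mean of 3 libraries as a line and the SD as a bar. MRPL41, MRPL54 and MRPS28 were higher in every CCS1477 library of their line and MRPS35, MRPL3 and MRPS16 lower. MRPL12 in H460 has 1 high CCS1477 library at 171 CPM, and MRPS25 moved in different directions in H460 and ABC-1.

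The L7/L12 stalk recruits translation factors to the ribosome, and its members did not move together. MRPL10, MRPL11, MRPL12, MRPL53 and MRPL54 were counted in it. In H2023 and in ABC-1 3 of these rose (MRPL10, MRPL53 and MRPL54), while MRPL11 and MRPL12 fell. In H460 MRPL53 and MRPL54 rose and MRPL11 fell. Thus 40%, 60% and 60% of the group rose and 20%, 40% and 40% fell in H460, H2023 and ABC-1. Over all genes tested 28.2%, 28.6% and 33.5% rose and 27.9%, 31.9% and 32.6% fell. MRPL10 (uL10m), which anchors the stalk, changed by 0.09 ± 0.05, 0.19 ± 0.05 and 0.22 ± 0.07 in H460, H2023 and ABC-1 (limma adjusted p = 0.144, 0.00512 and 0.0133), and its call in ABC-1 was lost without CCS1477 replicate 3 (adjusted p = 0.0646). MRPL11 (uL11m), at the stalk base, changed by −0.31 ± 0.05, −0.44 ± 0.07 and −0.40 ± 0.07, all past the threshold.

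MRPL12 (bL12m), the stalk protein itself, which has also been described to bind the mitochondrial RNA polymerase, lies at 81703357 to 81707526 of chromosome 17. In ABC-1 it fell from 66.2, 65.9 and 63.5 CPM to 44.9, 46.2 and 44.9 CPM, and in H2023 it went from 93.3, 92.6 and 87.7 CPM to 78.3, 89.1 and 79.3 CPM, where the groups overlapped. In H460 it was at 139, 136 and 140 CPM in DMSO and at 171, 130 and 129 CPM after CCS1477. The high value there came from replicate 1. The log2 change was −0.58 ± 0.05 in ABC-1 (limma adjusted p = 5.86e-07), −0.20 ± 0.06 in H2023 (adjusted p = 0.00816) and −0.04 ± 0.10 in H460 (adjusted p = 0.778), and without replicate 1 of H460 it was −0.17 (adjusted p = 0.00263). MRPS12 (uS12m), a protein of the decoding centre, was also high in that library, at 60.7 CPM beside 44.7 and 45.3 CPM in the other CCS1477 libraries and 52.0, 52.9 and 56.1 CPM in DMSO. Its change in H460 was −0.18 ± 0.11 with it (adjusted p = 0.194) and −0.32 without it (adjusted p = 0.000542). In H2023 and ABC-1 MRPS12 changed by −0.23 ± 0.05 and −0.32 ± 0.05, both past the threshold.

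The central protuberance (MRPL18, MRPL27, MRPL38, MRPL40, MRPL46, MRPL48 and MRPL55) was mixed as well, with 1 gene higher and 2 lower in H460, 1 and 1 in H2023, and 2 and 3 in ABC-1. The genes that rose were 14.3%, 14.3% and 28.6% of the group, and those that fell 28.6%, 14.3% and 42.9%. Over all genes tested the shares were 28.2%, 28.6% and 33.5% higher and 27.9%, 31.9% and 32.6% lower. No gene of this group rose in more than 1 line. MRPL27 (bL27m), close to the peptidyl transferase site, rose by 0.35 ± 0.10 in H460, a call lost without DMSO replicate 2 (adjusted p = 0.0656). MRPL55 (bL31m) rose in H2023, from 16.6, 19.5 and 17.5 CPM to 25.2, 24.6 and 22.8 CPM, a log2 change of 0.38 ± 0.08. MRPL40 (mL40) and MRPL48 (mL48) rose in ABC-1, MRPL48 from 14.2, 13.9 and 14.0 CPM to 17.3, 18.1 and 16.9 CPM. MRPL40 went there from 27.8, 28.5 and 27.4 CPM to 41.3, 39.3 and 41.7 CPM, with no overlap, and the log2 change was 0.48 ± 0.06 (limma adjusted p = 1.75e-05).

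Small and large subunit genes were close in their medians. By symbol the median log2 change was −0.14 over 49 MRPL and −0.21 over 29 MRPS genes in H460, −0.12 and −0.13 in H2023, and −0.14 and −0.13 in ABC-1. In H460 23 MRPL genes fell and 4 rose, beside 13 and 4 MRPS genes. In H2023 the counts were 24 and 5 for MRPL and 14 and 4 for MRPS, and in ABC-1 they were 24 and 8 for MRPL and 14 and 5 for MRPS. When genes were placed by structure, the median of the large subunit minus that of the small was 0.07, 0.06 and 0.02 in the same order of lines, beside 0.07, 0.01 and −0.01 by symbol. Proteins with a bacterial counterpart and proteins found only in mitochondria had medians of −0.19 and −0.13 in H460, −0.15 and −0.13 in H2023, and −0.15 and −0.14 in ABC-1.

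Summed reads gave a wider gap between the subunits. The 29 MRPS genes together stood at 1645 ± 33.2 CPM (SD, n = 3) in DMSO and 1497 ± 69.5 CPM in CCS1477 libraries of H460, at 1580 ± 8.69 and 1417 ± 36.3 CPM in H2023, and at 1181 ± 30.6 and 1060 ± 5.35 CPM in ABC-1. The 49 MRPL genes stood at 2681 ± 58.0 and 2541 ± 102 CPM, 2593 ± 33.9 and 2433 ± 69.8 CPM, and 2017 ± 42.3 and 1914 ± 8.45 CPM. These are changes of −9.02%, −10.3% and −10.2% for MRPS and of −5.24%, −6.17% and −5.10% for MRPL in H460, H2023 and ABC-1. The ratio of the MRPL to the MRPS sum was 1.62 to 1.64 in DMSO and 1.69 to 1.70 in CCS1477 libraries of H460, 1.63 to 1.65 and 1.69 to 1.75 in H2023, and 1.69 to 1.72 and 1.79 to 1.82 in ABC-1. In each line all CCS1477 libraries had a higher ratio than all DMSO libraries, also when genes were placed by structure. Without CCS1477 replicate 1 of H460 the sums there changed by −11.4% for MRPS and −7.39% for MRPL. Sums weigh abundant genes most, so a few genes can carry the ratio. In H460 the largest losses were those of MRPL3 (36.5 CPM), MRPS35 (35.0 CPM), MRPS16 (28.4 CPM) and MRPL42 (25.4 CPM), and the largest gain was that of MRPL41 (29.1 CPM). In H2023 MRPL3 lost 51.7, MRPS35 44.3, MRPL24 26.4 and MRPS18B 22.6 CPM, and MRPL41 gained most (23.8 CPM). In ABC-1 MRPL3 lost 54.4, MRPS16 36.9, MRPL12 19.9 and MRPL37 19.0 CPM, and MRPL41 again gained most (36.7 CPM).

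**Figure D3:**
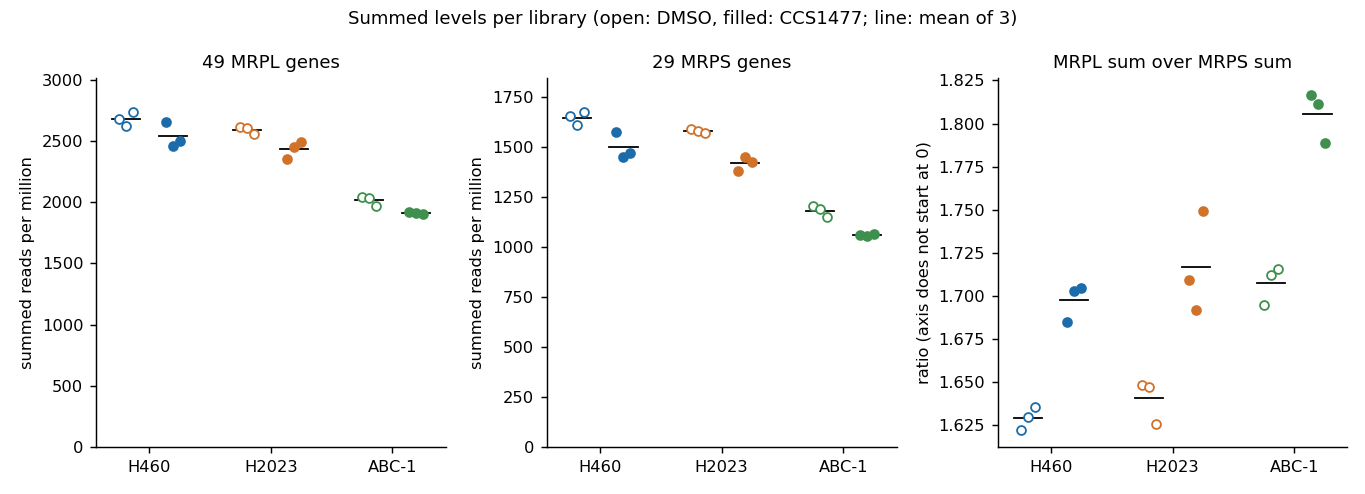
Summed level in CPM (y axis) of the 49 MRPL and of the 29 MRPS genes in each library, and the ratio of the sums, for the 3 lines (open points DMSO, filled points CCS1477, line the mean of 3 libraries). The ratio axis does not start at 0. Within each line every CCS1477 ratio lies above every DMSO ratio, and the highest H460 CCS1477 sums are those of replicate 1.

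Genes whose symbol and place differ also differed from each other. MRPS30 (mL65) fell in all lines, by 0.34 ± 0.04, 0.21 ± 0.04 and 0.39 ± 0.06 on the log2 scale, from 76.8, 74.6 and 76.5 CPM to 63.5, 64.2 and 61.5 CPM in H460, from 66.6, 66.0 and 67.5 CPM to 59.5, 60.8 and 58.6 CPM in H2023, and from 86.2, 86.0 and 75.4 CPM to 61.4, 66.6 and 68.7 CPM in ABC-1. MRPS18A, MRPS18B and MRPS18C are paralogs that descend from one bacterial protein. MRPS18A (mL66, large subunit) passed the threshold in no line, with 29.5, 26.4 and 30.9 CPM before and 32.5, 28.1 and 27.8 CPM after treatment in H460 and log2 changes of −0.05 ± 0.08, −0.10 ± 0.06 and −0.09 ± 0.05. MRPS18B (mS40) fell in all lines, by 0.22 ± 0.05, 0.51 ± 0.05 and 0.54 ± 0.06, and in ABC-1 its libraries went from 36.4, 38.7 and 36.4 CPM to 25.7, 26.2 and 27.7 CPM. MRPS18C (bS18m) went from 21.8, 18.9 and 21.7 CPM to 16.3, 15.4 and 16.6 CPM in H460. It fell by 0.44 ± 0.07 in H460 and 0.35 ± 0.08 in H2023, and its change in ABC-1 was −0.13 ± 0.08 (limma adjusted p = 0.179). MRPS36, the gene of the dehydrogenase subunit, rose in ABC-1, from 10.3, 11.4 and 12.2 CPM to 15.3, 16.5 and 15.6 CPM (log2 change 0.42 ± 0.09, adjusted p = 0.00173), and its changes in H460 and H2023 were −0.04 ± 0.09 and 0.17 ± 0.08.

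Short elements recur in the promoters of some of these genes. RefSeq promoter windows (GRCh38.p14), each from 250 bases before to 50 bases after an annotated start, were found for 69 of the 78 genes, 85 windows in all, since some genes have several. MRPL2, MRPL10, MRPL13, MRPL15, MRPL21, MRPL23, MRPL35, MRPS28 and MRPS36 had none in the table used. Searched were the letters CCGGAAG, a core bound by ETS factors such as GABP, ATGGCGG, a core bound by YY1, and TGCGCA, a half-site of NRF1. Both strands were read, TGCGCA is its own reverse complement, and no element contains another. CCGGAAG was in 38.8% of the members' windows and in 10.3% of all 35116 windows of the table, ATGGCGG in 29.4% and 5.55%, and TGCGCA in 20% and 8.24%. Over the 14854 windows of genes listed in all 3 deposited tables the shares were 17.4%, 9.57% and 12.3%. Matches to CCGGAAG lay before the start in 36 of 45 cases and matches to ATGGCGG in 6 of 26. Most of each window, 250 bases against 50, lies before the start, so 36 of 45 does not show a preference for that side. Windows of the same gene can overlap, and sites of MRPS22 and MRPL47, for example, were counted more than once. A match is a run of letters and does not show that a factor binds.

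The following runs are the 80 bases before a start, 5′ to 3′ on the strand of the gene, with matches in capitals (CCGGAAG or its complement CTTCCGG, and TGCGCA). They are shown because CCGGAAG, in either orientation, stands before a start both of genes that fell and of genes that rose in all lines. Among those shown, the former are MRPL3, MRPL18 and MRPL20, and the latter MRPL53 and MRPL54. MRPS21, which also fell in all lines, has a match at −11 to −5 of a start and is not shown. TGCGCA is marked in runs of MRPL18 and MRPS18B, which fell. It also lay at −156 to −151 of a start of MRPS33, which rose in all lines and is not shown. For MRPL18 the runs before 2 annotated starts are shown. Its gene begins at 159789812, so the run with CTTCCGG lies inside the gene, before a later start only. The TGCGCA shown for it also lies 37 to 42 bases after an earlier annotated start.
MRPL3 (chr3:131502972-131503051, minus strand): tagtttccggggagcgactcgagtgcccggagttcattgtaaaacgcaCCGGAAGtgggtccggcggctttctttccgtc
MRPL18 (chr6:159789787-159789866, plus strand): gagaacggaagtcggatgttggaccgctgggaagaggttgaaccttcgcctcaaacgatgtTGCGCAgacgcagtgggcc
MRPL18 (chr6:159790387-159790466, plus strand): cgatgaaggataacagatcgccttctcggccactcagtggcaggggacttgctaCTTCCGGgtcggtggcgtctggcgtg
MRPL20 (chr1:1407294-1407373, minus strand): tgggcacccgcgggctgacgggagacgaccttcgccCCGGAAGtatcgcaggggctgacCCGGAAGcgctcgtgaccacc
MRPS18B (chr6:30617760-30617839, plus strand): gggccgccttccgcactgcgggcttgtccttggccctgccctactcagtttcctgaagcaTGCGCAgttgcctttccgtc
MRPL53 (chr2:74472681-74472760, minus strand): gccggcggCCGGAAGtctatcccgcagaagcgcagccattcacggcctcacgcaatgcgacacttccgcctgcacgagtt
MRPL54 (chr19:3762602-3762681, plus strand): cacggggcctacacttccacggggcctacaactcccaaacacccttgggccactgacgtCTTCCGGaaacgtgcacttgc
In these runs MRPL3, MRPL20 and MRPL53 carry CCGGAAG in the orientation of the gene, MRPL20 in 2 copies. MRPL18 and MRPL54 carry it in the reverse orientation. Each orientation thus occurs both in genes that fell and in genes that rose. Of the 30 genes with CCGGAAG in a window, 11 fell and 4 rose in H460, 14 fell and 3 rose in H2023, and 10 fell and 7 rose in ABC-1. Of the 39 genes with a window and no such match, 21 fell and 3 rose, 20 fell and 4 rose, and 25 fell and 3 rose. For ATGGCGG, 14 of 24 genes with it fell in each line, and 0, 2 and 2 rose, while of 45 genes with a window and no such match 18, 20 and 21 fell and 7, 5 and 8 rose in H460, H2023 and ABC-1. For TGCGCA, 7, 8 and 9 of 15 genes with it fell and 2, 1 and 2 rose, and of 54 without it 25, 26 and 26 fell and 5, 6 and 8 rose. Of all genes tested, 27.9%, 31.9% and 32.6% fell in these lines.

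Lines differed in how some members responded. The change in H460 minus that in ABC-1 passed the threshold for 31 genes, 16 with a higher and 15 with a lower value in H460, where 24.3% and 21.9% of all genes did. For H2023 minus ABC-1 there were 12 and 11 such genes, against 19.3% and 21.4%. For H460 minus H2023 there were 3 and 6, against 16.5% and 10.6%. Across the 78 genes the log2 changes of H460 and H2023 had a Pearson correlation of 0.785 and the same sign in 66, those of H2023 and ABC-1 0.676 and 69, and those of H460 and ABC-1 0.452 and 63. These are descriptions over genes, which are not independent, and within a line all genes share the same libraries.

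**Figure D4:**
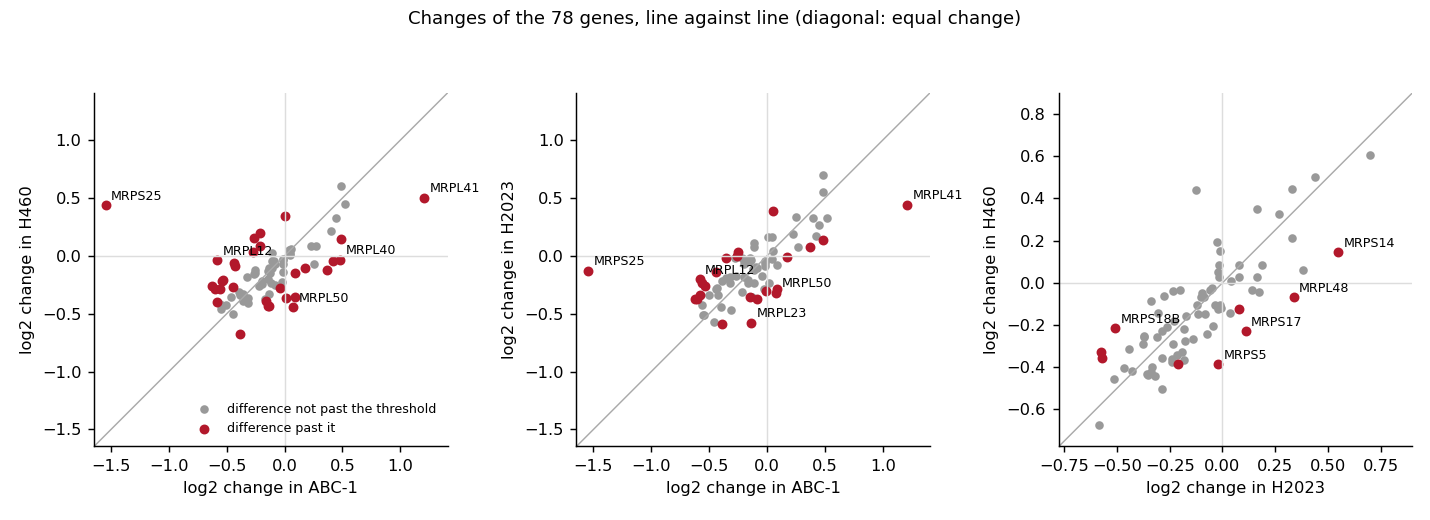
Log2 changes of the 78 genes in one line (x axis) against another (y axis), with the diagonal for equal change and in red the genes whose difference between the lines passes the threshold. MRPS25 and MRPL41 lie farthest from the diagonal in both comparisons with ABC-1, and 9 genes are red between H460 and H2023.

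Called in opposite directions in a pair of lines were 2 genes (2.56% of the members), where 12.2% of the genes tested in all lines were. MRPS25 (mS25), a small subunit protein at 15042460 to 15065335 of chromosome 3, is one of the least abundant members. In ABC-1 it went from 8.92, 5.30 and 12.2 CPM to 4.63, 2.84 and 1.63 CPM, and in H460 from 10.1, 7.01 and 10.3 CPM to 12.0, 13.1 and 13.7 CPM. In H2023 it was at 8.08, 7.83 and 7.73 CPM and then at 7.30, 9.64 and 5.88 CPM. Treated and untreated libraries were apart in ABC-1 and H460, in opposite order, and overlapped in H2023. The log2 change was −1.55 ± 0.34 in ABC-1 (limma adjusted p = 0.00179), the largest fall of any member, −0.13 ± 0.16 in H2023 (adjusted p = 0.506) and 0.44 ± 0.15 in H460 (adjusted p = 0.0331). The rise in H460 was not called without DMSO replicate 2, CCS1477 replicate 2 or CCS1477 replicate 3, nor in the fit over 18 libraries (adjusted p = 0.0523, 0.0780, 0.0919 and 0.217). The difference between H460 and ABC-1 was 1.99 ± 0.41 (adjusted p = 0.000718) and that between H2023 and ABC-1 1.42 ± 0.41 (adjusted p = 0.0107). The other gene, MRPS6 (bS6m), went from 29.9, 28.8 and 29.3 CPM to 37.1, 33.1 and 36.0 CPM in H460 and from 31.9, 29.5 and 30.7 CPM to 28.9, 24.6 and 29.5 CPM in ABC-1. Its changes were 0.19 ± 0.06 and −0.21 ± 0.08, and the calls were lost under 3 alternatives in H460 and 4 in ABC-1.

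MRPL41 rose more in ABC-1 than in H460 or H2023, with differences of −0.71 ± 0.13 (limma adjusted p = 0.000178) and −0.77 ± 0.13 (adjusted p = 9.55e-05) for each line minus ABC-1. Its treated level in ABC-1 approached those of the other lines, from a starting level below theirs. MRPL12 fell more in ABC-1, with differences of 0.54 ± 0.11 (adjusted p = 0.000610) for H460, or 0.41 and still called without CCS1477 replicate 1, and 0.38 ± 0.11 (adjusted p = 0.0114) for H2023. MRPL50 (mL50) fell in H460, from 49, 49 and 46.9 CPM to 35.6, 35.8 and 40.9 CPM, and in H2023, from 51.8, 49.1 and 51.0 CPM to 39.9, 43.1 and 43.2 CPM. In ABC-1 it was at 22.7, 24.1 and 22 CPM and then at 24.5, 26.5 and 24.7 CPM, with a log2 change of 0.08 ± 0.07. The differences from ABC-1 were −0.52 ± 0.09 and −0.40 ± 0.09, both past the threshold. MRPL14 (uL14m) rose in no line and fell in ABC-1, from 45.5, 47.3 and 45.9 CPM to 40.9, 38.3 and 40.8 CPM, and its change was higher in H460 by 0.42 ± 0.11 (adjusted p = 0.00508). MRPS10 (uS10m) fell in H460 and H2023 and not in ABC-1, with changes of −0.35 ± 0.04, −0.29 ± 0.04 and 0.09 ± 0.04 and differences from ABC-1 of −0.44 ± 0.05 and −0.38 ± 0.05.

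H460 and H2023, the lines described as NRF2-activated, differed from each other in 9 members, and in 5 with the replicate block or with only the 12 libraries of both lines. Leaving out a single library gave 5 to 10, with 5 without DMSO replicate 1 of H460, DMSO replicate 3 of H2023 or CCS1477 replicate 2 of H2023. MRPS14 (uS14m), a protein of the small subunit head, was among them. It rose in H2023, from 10.4, 11.4 and 9.49 CPM to 15.2, 16.0 and 16.5 CPM, and in ABC-1, from 13.0, 11.7 and 14.4 CPM to 19.7, 18.2 and 19.2 CPM, while in H460 it went from 15.8, 17.1 and 16.1 CPM to 18.1, 19.0 and 20 CPM. No treated library overlapped an untreated one of its line, but the log2 change in H460, 0.14 ± 0.07, did not pass the threshold (limma adjusted p = 0.107), and that in H2023 was 0.55 ± 0.09. The difference for H460 minus H2023 was −0.41 ± 0.12 (adjusted p = 0.0142). MRPS5 (uS5m) fell in H460, from 62.6, 62.8 and 63.3 CPM to 49, 53.0 and 49.8 CPM, and was at 28.6, 27.8 and 27.0 CPM and then 25.1, 31.2 and 29.2 CPM in H2023. That difference, −0.37 ± 0.11 (adjusted p = 0.0246), was lost under 5 alternatives, without CCS1477 replicate 1 of H460 among them (adjusted p = 0.0508). MRPS18B fell less in H460 than in H2023, by 0.29 ± 0.07 (adjusted p = 0.00555), and MRPS17, MRPS22, MRPL42, MRPL24, MRPL23 and MRPL48 were the others. Of these, MRPS22, MRPL48, MRPL23 and MRPL24 lost the call under 12, 12, 14 and 9 alternatives, each without CCS1477 replicate 1 of H460 among them.

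Beside these, 11 genes passed the threshold in no line: MRPL2, MRPL13, MRPL16, MRPL34, MRPL43, MRPL58, MRPS17, MRPS18A, MRPS24, MRPS26 and MRPS31. MRPL16 (uL16m), near the peptidyl transferase centre, changed by 0.01 ± 0.05, 0.04 ± 0.06 and 0.05 ± 0.07 in H460, H2023 and ABC-1. MRPS24 (uS3m), an abundant member at 111 CPM per kb, changed by −0.07 ± 0.08, −0.10 ± 0.04 and −0.08 ± 0.05. MRPL58, a peptidyl-tRNA hydrolase that became part of the ribosome, changed by −0.11 ± 0.05, −0.04 ± 0.06 and −0.14 ± 0.09. Without CCS1477 replicate 1 of H460, MRPS24 and MRPS17 were called lower there, with changes of −0.16 and −0.30 (limma adjusted p = 0.00790 and 0.0198). The values of the others do not show that they were unaffected.

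Some members share their ground with neighbours. The counting is not stated to use strand, so reads of MRPS25 and NR2C2, MRPS12 and SARS2, MRPL49 and FAU, or MRPL43 and TWNK, which overlap on opposite strands, cannot be told apart. MRPS16 overlaps DNAJC9, MRPL53 overlaps CCDC142 and MRPS5 overlaps ZNF514 on the same strand. MRPL41, MRPL54, MRPL50, MRPL24, MRPL15, MRPS15, MRPS30 and MRPS33 overlap no other annotated gene. Further, 34 of the 78 genes have 75 pseudogenes named after them in GENCODE 29, MRPS21 with 8 and MRPL42 with 4 among them, of which each deposited table lists 2, and how reads that match both were assigned is not given in the sources used here.

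The wider machinery of mitochondrial translation was set beside these genes. Of 5 ribosomal proteins without an MRP symbol that the tables list, PTCD3 (mS39) fell in all lines, by 0.28 ± 0.05, 0.19 ± 0.04 and 0.37 ± 0.05. DAP3 (mS29), a GTP-binding protein of the small subunit, fell by 0.14 ± 0.04 in H460, a call lost with scaling by library totals (limma adjusted p = 0.149), and rose by 0.20 ± 0.05 in ABC-1. Of 25 assembly and RNA-modifying factors, 10 fell and 3 rose in H460, 11 fell and 3 rose in H2023, and 5 fell and 3 rose in ABC-1, with medians of −0.13, −0.17 and −0.11. Of 17 translation and membrane insertion factors, 8 fell and 1 rose in H460 and in H2023, and 7 fell and 5 rose in ABC-1. MRRF, the recycling factor, and QRSL1, a subunit of the amidotransferase that makes glutaminyl-tRNA, fell in all lines, QRSL1 by 0.37 ± 0.06, 0.74 ± 0.05 and 0.52 ± 0.07. Of 17 mitochondrial aminoacyl-tRNA synthetases, 4 fell and 4 rose in H460, 3 and 3 in H2023, and 4 and 3 in ABC-1. The shares that fell were 40%, 44% and 20% for assembly factors and 47.1%, 47.1% and 41.2% for translation factors. For synthetases 23.5%, 17.6% and 23.5% fell. The shares that rose were 12% in each line, then 5.88%, 5.88% and 29.4%, then 23.5%, 17.6% and 17.6%, in the same order of groups. Of all genes tested, 27.9%, 31.9% and 32.6% fell and 28.2%, 28.6% and 33.5% rose. MARS2, the methionine enzyme, rose in every line by 0.38 ± 0.05, 0.45 ± 0.08 and 0.39 ± 0.08.

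A list of genes that make and process mitochondrial RNA, which also holds TWNK and POLG of mitochondrial DNA copying, had medians below 0 in each line. Of 23 tested, 13 fell and 3 rose in H460, 14 fell and 1 rose in H2023, and 6 fell and 3 rose in ABC-1, with medians of −0.21, −0.26 and −0.07. The share that fell was 56.5%, 60.9% and 26.1%, beside 27.9%, 31.9% and 32.6% of all genes. TWNK, the helicase of mitochondrial DNA, fell from 54.1 ± 0.615 to 33.4 ± 0.926 CPM (SD, n = 3) in H460, with log2 changes of −0.77 ± 0.05, −0.49 ± 0.07 and −0.75 ± 0.08 in H460, H2023 and ABC-1. POLG, the DNA polymerase of mitochondria, moved the other way and rose by 1.33 ± 0.08 in H460, 0.41 ± 0.16 in H2023 (limma adjusted p = 0.0463) and 0.58 ± 0.04 in ABC-1. The 13 messenger RNAs of mitochondrial DNA had log2 changes of −1.52 to −0.13 in H460 and −0.49 to 0.23 in ABC-1 and no calls by limma's test there, though other settings gave up to 5 lower in H460 and up to 11 higher in ABC-1. MT-CYB, MT-ND4L and MT-ND5 rose in H2023 by 0.39 ± 0.07, 0.40 ± 0.09 and 0.28 ± 0.08, calls lost in the fit over 18 libraries (limma adjusted p = 0.195, 0.618 and 0.510). Their summed level in H460 was 17309 to 18701 CPM in DMSO libraries and 7929, 18244 and 17453 CPM in the CCS1477 replicates, the first again standing apart. The 2 ribosomal RNAs of mitochondrial DNA had a summed level of 1946, 1834 and 1287 CPM in DMSO and 16.1, 571 and 283 CPM in CCS1477 libraries of H460, the lowest being replicate 1. MT-RNR1 and MT-RNR2 fell there, with log2 changes of −3.62 ± 1.13 and −3.69 ± 1.1, calls lost without single DMSO libraries (highest limma adjusted p = 0.0680 and 0.0599). In H2023 the sums were 1.23 to 4.32 CPM and then 5.52 to 7.88 CPM, and both rose, by 1.62 ± 0.35 and 1.32 ± 0.37, calls lost in the fit over 18 libraries (adjusted p = 0.241 and 0.320). In ABC-1 the sums were 1.66, 1.47 and 50.3 CPM and then 2.32 to 4.40 CPM, with no call, and how RNA was selected is not stated.

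Respiratory chain subunits encoded in the nucleus, the partners of the proteins this ribosome makes, did not share the lower median. Of 75 tested, 7 rose and 19 fell in H460, 15 rose and 4 fell in H2023, and 25 rose and 15 fell in ABC-1, and the medians were −0.04, −0.01 and 0.02. Thus 9.33%, 20% and 33.3% rose and 25.3%, 5.33% and 20% fell. Of all genes tested, 28.2%, 28.6% and 33.5% rose and 27.9%, 31.9% and 32.6% fell. In H460 the share that rose was close to the 10.3% of the mitochondrial ribosomal protein genes. ATP5MC1, which encodes the c subunit of ATP synthase, fell in all lines by 0.70 ± 0.04, 0.70 ± 0.05 and 1.03 ± 0.06, and SDHA, the flavoprotein of complex II, rose by 0.52 ± 0.06, 0.54 ± 0.04 and 0.21 ± 0.04. Of 79 cytosolic ribosomal protein genes tested, 10 rose and 8 fell in H460, 10 rose and 30 fell in H2023, and 4 rose and 63 fell in ABC-1, with medians of 0.01, −0.06 and −0.26. Their shares were 12.7%, 12.7% and 5.06% higher and 10.1%, 38.0% and 79.7% lower. In H460 the mitochondrial set had the lower median of both kinds of ribosomal protein, and in ABC-1 the cytosolic set did. The comparison of these groups is by counts and medians, without a test.

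**Figure D5:**
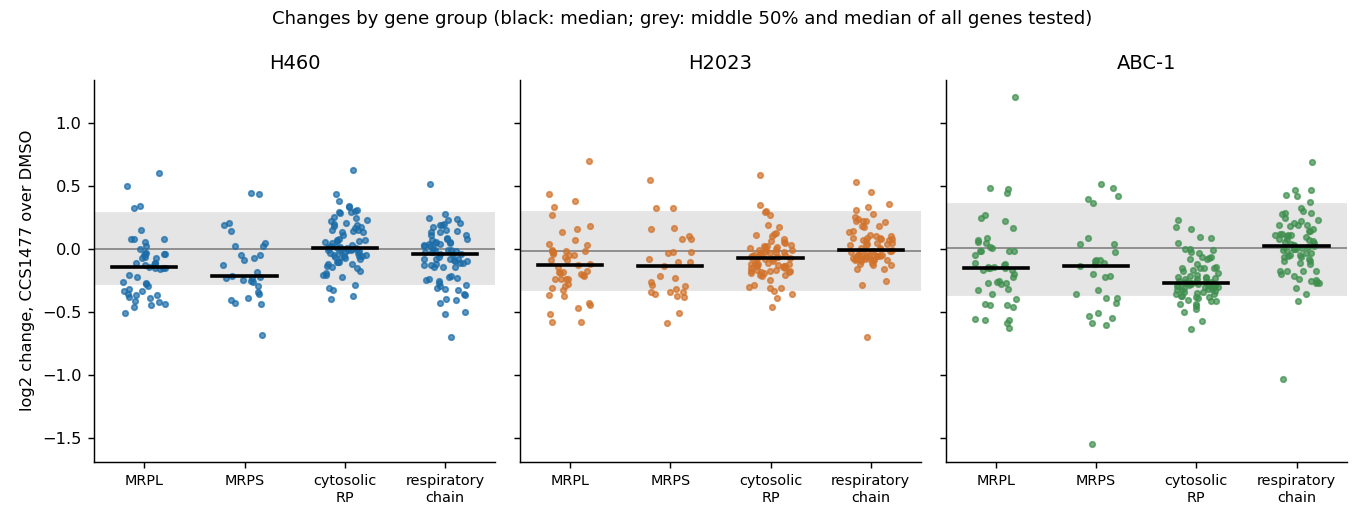
Log2 changes after CCS1477 (y axis) of MRPL, MRPS, cytosolic ribosomal protein (RP) and nuclear-encoded respiratory chain genes in each line, 1 point per gene, with the group median in black and the median and middle 50% of all genes tested in grey. MRPL and MRPS medians lie below 0 in all 3 lines, and the cytosolic RP median is at 0.01 in H460 and −0.26 in ABC-1.

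Among regulators known to act on genes of mitochondrial proteins, PPRC1, a coactivator of the PGC-1 family that works with NRF1, fell in all lines. It was at 130 ± 2.09 CPM in DMSO and 93.4 ± 5.59 CPM in CCS1477 libraries of H460 (SD, n = 3), with log2 changes of −0.55 ± 0.05, −0.55 ± 0.04 and −0.73 ± 0.03. NRF1 itself changed by −0.09 ± 0.06, −0.05 ± 0.07 and −0.16 ± 0.08. GABPB1, the partner of the ETS factor GABPA, changed by −0.18 ± 0.05, −0.26 ± 0.07 and −0.38 ± 0.07, and its call in H460 was lost under 4 alternatives. YY1 changed by −0.12 ± 0.04, −0.14 ± 0.04 and −0.52 ± 0.04, past the threshold each time. Of the 13 regulators tested in H460 and H2023, 7 and 8 fell and 0 and 1 rose, and of the 12 tested in ABC-1 6 fell and 1 rose. The share that fell was 53.8%, 61.5% and 50%, beside the 27.9%, 31.9% and 32.6% of all genes, and the number that fell in H460 ran from 3 to 8 over the alternatives.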

How the data were processed

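RNA was sequenced with a directional MGI kit as 150 bp pairs on a DNBSEQ instrument, per the labels' protocols. The authors deposited log2 values in 1 table per line, on GRCh38 and GENCODE 29 per the submitters' processing notes. For the aligner, counter and strand setting no name is given in the sources used here. The values equal log2(reads divided by a size factor, plus 4), and whole reads were recovered for 100% of values up to 1000 reads (tolerance 0.1). Normalised counts had been planned for, and the deposited log2 values were kept for the tests. CPM was computed from the recovered reads of all rows. The tables share column names, so the line was taken from the table and the sample from the column, and 0 columns of values were left unmapped. Symbols were found for 16421 of 16424, 18140 of 18140 and 16910 of 16910 gene rows. Between 2.84% and 3.45% of the members' reads lay in separate transcript rows and were not counted.

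Each line was fitted alone with limma 3.58.1 (trend, R 4.3.3), two-sided, over 13516, 14572 and 13543 genes, with Benjamini-Hochberg adjustment over all of them. Differences between lines came from 1 fit over 18 libraries and 13647 genes. The fits were also run on simulated reads with known changes. These were drawn with the same dispersion for every gene and no deviating library, a simpler setting than these data. That run therefore does not bear on the calls given here. Tables were handled in Python 3.11.15 with pandas 2.3.3 and numpy 2.4.6. Members and lists were chosen with earlier results of these data known. Values in every library are given for members with the highest and lowest changes in a line, in all lines or between lines, for those with the highest and lowest levels, and for a fixed few (MRPL12, MRPS12, the MRPS18 paralogs, MRPS30 and MRPS36). From other lists up to 4 genes per line with the smallest p were eligible, and NRF1, GABPB1 and the remaining list genes named outside that rule were chosen after their values were seen. Alternatives were other scalings, a constant of 1, limma-voom, other filters, a replicate block, other sets of libraries, leaving out each library, the structural subunit and, chosen after seeing the data, adding transcript rows.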

Additional observations from a re-analysis of the deposited data

Results flagged for a closer look

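The change after CCS1477 differed between lines by the test of the difference itself (limma, 18 libraries). This held for 31 of the 78 genes between H460 and ABC-1, for 23 between H2023 and ABC-1 and for 9 between H460 and H2023. In each comparison, and in each direction, the share of members that passed was below the share of all genes tested. The counts therefore do not show that these genes differed between lines more often than other genes. For H460 minus ABC-1 the log2 difference was 1.99 for MRPS25, 0.54 for MRPL12 and 0.42 for MRPL14, and −0.71 for MRPL41, −0.52 for MRPL50 and −0.51 for MRPL40. For H2023 minus ABC-1 it was 1.42 for MRPS25, 0.38 for MRPL12 and 0.34 for MRPS5, and −0.77 for MRPL41, −0.44 for MRPL23 and −0.40 for MRPL50. For H460 minus H2023 it was 0.29 for MRPS18B, 0.25 for MRPL23 and 0.22 for MRPL24, and −0.41 for MRPS14, −0.41 for MRPL48 and −0.37 for MRPS5. Of these, MRPL23, MRPL24 and MRPL48 in the last comparison lost the call under 14, 9 and 12 alternatives, and MRPS5 lost it under 8 for H2023 minus ABC-1 and 5 for H460 minus H2023.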

How the results depend on the processing

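Of 240 alternative values of the counts and medians, 223 stayed within 1.5 times the count or 1 SD of the median and 17 moved. Scaling by library totals gave medians of −0.0733, −0.0737 and −0.0816 in H460, H2023 and ABC-1 (0.0731, 0.0417 and 0.0719 over all genes) and 15 genes higher in H2023. Placing genes by structure turned the MRPL minus MRPS median in ABC-1 from −0.0116 to 0.0197. With a replicate block 5 genes differed between H460 and H2023 in place of 9, as with only the 12 libraries of both lines, and the cause was not tested. The block otherwise gave 8 higher and 35 lower in H460, 9 and 39 in H2023 and 13 and 37 in ABC-1. Same-numbered libraries correlated by 0.0106, 0.0973 and 0.0483 in H460, 0.0340, 0.0440 and 0.0377 in H2023 and −0.104, −0.0433 and −0.0709 in ABC-1, so the numbers were not taken to pair samples, and not every library correlated best with its own number. Leaving out 1 library gave 3 to 8 higher, 32 to 45 lower, a median of −0.17 to −0.11 and an MRPL minus MRPS median of −0.0165 to 0.0663 in H460. The same ranges were 8 to 11, 34 to 38, −0.15 to −0.10 and −0.0218 to 0.0775 in H2023, and 12 to 14, 33 to 40, −0.16 to −0.12 and −0.0313 to 0.0590 in ABC-1. Differing genes numbered 26 to 30 for H460 and ABC-1, 20 to 25 for H2023 and ABC-1 and 5 to 10 for H460 and H2023. Over single members, 7633 of 7956 alternative values kept direction and call, 224 lost the call, 99 gained it and 0 changed the sign of a call. In the other lists, higher calls for the respiratory chain in H460 ran from 5 to 15 and lower calls from 15 to 29. The same ranges were 13 to 24 and 3 to 8 in H2023, and 17 to 36 and 11 to 17 in ABC-1. For cytosolic ribosomal proteins in H460, higher calls ran from 5 to 19 and lower calls from 3 to 19. MRPS11 and MRPS25 had the widest errors. Both were among the members with the lowest CPM per kb, but MRPS14, also among these, did not have errors this wide.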
